A study of Mus musculus with 6 samples.

Results

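The vomeronasal type 1 receptors (Vmn1r) and the taste receptors (Tas1r and Tas2r) were examined as a set of genes that newborn cerebellum is not known to use. Members were all probes, apart from control probes, whose gene name on the array begins with Vmn1r, Tas1r or Tas2r. The rule found 215 probes of 202 genes, among 55681 probes with 34797 gene names on the array. They comprised 175 probes of 164 Vmn1r genes, 3 probes of 3 Tas1r genes and 37 probes of 35 Tas2r genes. Expression was read from 6 one-colour Agilent arrays, on which each probe gives the fluorescence of bound, cyanine-3-labelled cRNA. The RNA came from P1 offspring of adult C57BL/6J dams, fed an amino acid-based AIN-93G diet from a week before mating to the end of pregnancy with folic acid (FA) at 2 mg/kg (2 mg FA group) or 20 mg/kg (20 mg FA group). No transgene, deletion or drug was involved, and the diets are described as differing in FA. For each sex, 1 array held the 2 mg FA group and 2 arrays (replicates 1 and 2) held the 20 mg FA group. The paper states that RNA extraction was repeated for the 20 mg FA group alone, on pools from a different batch. Which replicate holds which batch is not stated. The cRNA on an array stood for 3 pooled pups of a sex, so the array is the unit of replication and the 2 mg FA groups have no measured spread. Cerebellum is the tissue in the titles and the methods, and whole brain in 1 other label field.

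V1R proteins are G protein-coupled receptors that sensory neurons of the vomeronasal organ use to detect pheromones, and these neurons signal through Gnai2 and the channel Trpc2. Each such neuron is thought to express a very small part of the large receptor repertoire. Taste cells of the tongue use heteromers of TAS1R proteins for sweet and umami compounds and TAS2R proteins for bitter compounds. Both TAS1R and TAS2R signal through gustducin (Gnat3), Plcb2 and the channel Trpm5. Some Tas1r and Tas2r transcripts have also been described outside the tongue, in airway and gut cells.

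The arrays did not stand at the same level. The array labelled female 20 mg replicate 2 had a median processed signal of 5.14 over all probes, against 39.0 to 162 on the other 5 arrays. Its mean Spearman correlation with the other arrays was 0.649, against 0.859 to 0.889 for the others. Slide 1 carried both 2 mg arrays and female 20 mg replicate 1. Slide 2, scanned on an earlier day than slides 1 and 3, carried female 20 mg replicate 2 along with male 20 mg replicate 1. Slide 3 carried the remaining array, male 20 mg replicate 2. Slide and scan day are therefore partly shared with dose, and the lone 2 mg array of each sex lay on slide 1 together with a single 20 mg array. For the tissue, 12 of 13 cerebellar marker genes were well above background on at least 5 arrays, with the granule cell lineage gene Atoh1 and the Purkinje cell gene Pcp2 among them.

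The probe is what each value rests on, so the probes that carried the signals described below are shown first. All are 60-mers given 5′ to 3′ as in the array design, and positions are in mm9. These 7 probes were well above background on 4 or 5 arrays, and each has at least 1 forward reading frame without a stop. The capitals mark the run AGCCCC, which was noticed after values had been seen. The first 4 probes lack it.
Tas1r1 (chr4:151402193-151402252, minus strand): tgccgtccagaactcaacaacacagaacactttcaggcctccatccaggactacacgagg
Vmn1r48 (chr6:89972465-89972524, plus strand): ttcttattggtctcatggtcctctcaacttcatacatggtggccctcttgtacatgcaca
Vmn1r192 (chr13:22279777-22279836, minus strand): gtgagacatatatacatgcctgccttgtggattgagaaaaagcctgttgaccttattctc
Vmn1r168 (chr7:24326545-24326604, plus strand): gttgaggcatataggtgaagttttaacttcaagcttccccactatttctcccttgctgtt
Vmn1r217 (chr13:23205741-23205800, minus strand): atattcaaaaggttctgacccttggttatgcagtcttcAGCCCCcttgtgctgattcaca
Vmn1r195 (chr13:22371043-22371102, plus strand): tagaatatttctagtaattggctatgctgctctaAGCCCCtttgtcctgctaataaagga
Vmn1r204 (chr13:22648908-22648967, plus strand): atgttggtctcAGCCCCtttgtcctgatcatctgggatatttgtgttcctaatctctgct

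The next pair is shown because both probes hold the same run of 17 bases, in capitals, and yet followed opposite courses over the arrays, as described below. No other probe on the array holds this run on either strand.
Vmn1r217 (chr13:23205741-23205800, minus strand): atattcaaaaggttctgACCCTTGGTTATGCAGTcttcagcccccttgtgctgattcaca
Vmn1r197 (chr13:22420557-22420616, plus strand): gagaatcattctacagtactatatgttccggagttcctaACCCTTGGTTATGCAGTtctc

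First, it was asked how silent these receptors were in each pool. Most of them were at background, but the set was not dark on every array. Among the 215 probes, 142 (66.0%) were well above background, by the flag of the image software, on none of the 6 arrays. A further 31 were well above background on 1 array, 42 on at least 2 arrays and 8 on 5 arrays. No receptor probe reached all 6 arrays. Over all probes of the array, 25.4% were well above background on none and 22.3% on all 6.

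There were 37 receptor probes well above background on the female 2 mg array (17.2%, 95% Wilson interval 12.8 to 22.8), against 63.6% of all probes. On the male 2 mg array there were 47 (21.9%, interval 16.9 to 27.9), against 65.8% of all probes. On female 20 mg replicate 1 there were 59 (27.4%, interval 21.9 to 33.8), against 71.9% of all probes. On these 3 arrays of slide 1 the share was highest in the pool of the 20 mg FA group, with overlapping intervals.

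On male 20 mg replicate 2 there were 27 (12.6%, interval 8.78 to 17.7), against 55.7% of all probes. On male 20 mg replicate 1 there were 11 (5.12%, interval 2.88 to 8.93), against 51.1% of all probes. On female 20 mg replicate 2, 1 of 215 receptor probes was well above background (0.465%, interval 0.0822 to 2.59), against 23.3% of all probes. The receptors thus followed the order of the arrays over all probes. In each sex the 2 arrays at 20 mg differed, and in females their intervals were far apart, with the 2 mg array between them. These intervals cover counting error over probes alone, since the probes of an array share its RNA pool, slide and scan.

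**Figure D1:**
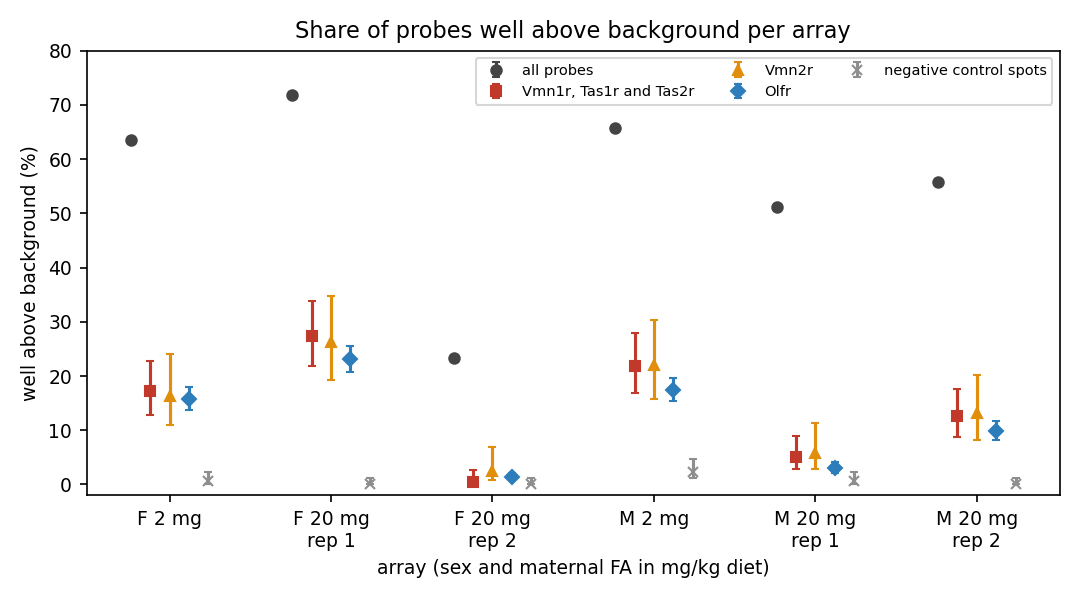
Share of probes well above background (vertical axis, %) on each array (horizontal axis, sex and FA dose), for all 55681 probes, the 215 Vmn1r, Tas1r and Tas2r probes, the Vmn2r and Olfr probes and the 308 negative control spots. Bars are 95% Wilson intervals. The receptor probes lie under all probes on every array and over the negative control spots on every array but female 20 mg replicate 2, and the Vmn2r and Olfr families lie inside their intervals.

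Negative control spots, which carry no mouse sequence, served as the background. Of the 308 such spots, 2 were well above background on the female 2 mg array, 7 on the male 2 mg array, 2 on male 20 mg replicate 1 and none on the other 3 arrays. Their highest share was 2.27% (interval 1.11 to 4.62). The interval of the receptors lay above that of the control spots on the same array on 5 arrays, although on male 20 mg replicate 1 only by a small margin (from 2.88% against up to 2.34%). On female 20 mg replicate 2 both shares were near zero and their intervals overlapped.

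The 2 larger of the other chemosensory families gave similar shares. Vmn2r, the second vomeronasal receptor family, had 16.4% of 122 probes well above background on the female 2 mg array, 22.1% on the male 2 mg array and 26.2%, 2.46%, 5.74% and 13.1% on female 20 mg replicates 1 and 2 and male 20 mg replicates 1 and 2. The odorant receptors (Olfr, 1198 probes) had 15.7%, 17.4%, 23.1%, 1.34%, 3.01% and 9.85% in the same order of arrays. Each of these 12 shares lay inside the interval of the Vmn1r, Tas1r and Tas2r probes on the same array. The small Taar family (15 probes) had 26.7%, 33.3%, 26.7%, 0.0%, 0.0% and 0.0% in the same order. Its shares lay outside the receptor interval on every array but female 20 mg replicate 1. With 15 probes its own intervals were wide, such as 15.2 to 58.3 on the male 2 mg array. The difference between families was not tested.

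Next, the members were described by role. The Tas1r genes encode the 3 subunits of the sweet and umami receptors. Tas1r3, the subunit common to both receptors, had a processed signal of 133 on the female 2 mg array, 271 and 16.8 on female 20 mg replicates 1 and 2, 152 on the male 2 mg array, and 172 and 87.8 on male 20 mg replicates 1 and 2. Tas1r1, the umami subunit, had 73.0, then 135 and 11.7 in females, and 143, then 44.6 and 42.2 in males. Both were well above background on every array but female 20 mg replicate 2, and the lowest values of both came from that array.

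Tas1r2, the sweet subunit, was at 14.0, then 34.1 and 4.20 in females and 16.2, then 7.08 and 4.85 in males, and was well above background on female 20 mg replicate 1 alone. After quantile normalization Tas1r3 was higher in the 20 mg FA group by 1.03 in males (log2, 6.97 ± 0.24 SD, n = 2, against 5.95) and by 1.38 in females (7.47 ± 1.70 SD, n = 2, against 6.09). Neither value passed the fold rule or limma, both defined below. In males both 20 mg arrays stood above the 2 mg array, by 1.20 and 0.86. In females the difference was 0.19 on replicate 1 and 2.58 on replicate 2, where the probe was not well above background.

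Among the bitter receptors, Tas2r109 was the brightest and Tas2r113 the next by mean normalized value. Tas2r109 had processed signals of 3145 on the female 2 mg array, 3465 and 5.42 on female 20 mg replicates 1 and 2, 2507 on the male 2 mg array, and 135 and 1358 on male 20 mg replicates 1 and 2. Tas2r113 had 523, then 338 and 4.66 in females, and 366, then 7.24 and 543 in males. For both genes the 2 arrays of slide 2 were the lowest of the 6. The 2 mg pool lay between the 20 mg pools for Tas2r109 in females and for Tas2r113 in males, and above both for Tas2r109 in males and for Tas2r113 in females. After normalization the order turned for Tas2r109, whose 2 mg value lay above both 20 mg values in females (10.45 against 9.67 and 6.16) and between them in males (9.92 against 6.88 and 11.29), and it was kept for Tas2r113. At the other end, 10 of the 37 Tas2r probes lay at the floor of 10 on all 6 arrays, so that no dimmest Tas2r could be singled out.

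The brightest Vmn1r probe was that of Vmn1r65, with 3403 on the female 2 mg array, 3327 and 3.80 on female 20 mg replicates 1 and 2, 3169 on the male 2 mg array, and 6.46 and 1552 on male 20 mg replicates 1 and 2. It was therefore bright on each later-day array, and the 2 arrays of slide 2 were at the level of negative control spots, whose median was 4.44 and 7.29 there. The probes of Vmn1r65 and Tas2r113 hold a stop in each forward reading frame, unlike 180 of the 215 receptor probes (83.7%), against 79.3% of all probes with an open frame. Where these probes fall within their transcripts was not analysed here.

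Vmn1r70, Vmn1r48, Vmn1r217, Vmn1r192 and Vmn1r168 were, with Tas2r109, Tas1r3 and Tas1r1, the probes well above background on 5 arrays. On the 2 mg arrays they ranged from 145 for Vmn1r168 in males to 625 for Vmn1r70 in males. Vmn1r217 had 462, then 383 and 3.89 in females, and 462, then 51.9 and 314 in males. On female 20 mg replicate 2 the 5 Vmn1r genes were between 3.76 and 7.01, and on male 20 mg replicate 1 between 39.1 and 97.5. On male 20 mg replicate 2 they ranged from 43.4 to 525. Apart from Vmn1r168, which was lower on male 20 mg replicate 2 than on replicate 1, they were thus dimmest on the 2 arrays of slide 2.

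On the 4 arrays of the later scan day 23 receptor probes of 22 genes were all well above background (16 Vmn1r, 2 Tas1r and 5 Tas2r). Since they were chosen by these 4 arrays, a smaller share on the other two was favoured by the choice, and the shares below are a description. On male 20 mg replicate 1, 8 of these 23 (34.8%) were well above background, and on female 20 mg replicate 2 none were, a count of 0 of 23. Of all probes well above background on the same 4 arrays, 85.7% of 30058 were so on male 20 mg replicate 1 and 41.9% on female 20 mg replicate 2. With a processed signal over 100 on each of the 4 arrays, 11 receptor probes remained, and 5 of them (45.5%) were well above background on male 20 mg replicate 1, against 95.6% of 20675 probes. Receptors and other probes were not matched here on brightness beyond this limit of 100, and scan day, slide and the RNA of these pools cannot be told apart.

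Of the odorant receptor probes chosen in the same way, 25.2% of 107 were well above background on male 20 mg replicate 1, and of the Vmn2r probes 38.5% of 13.

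**Figure D2:**
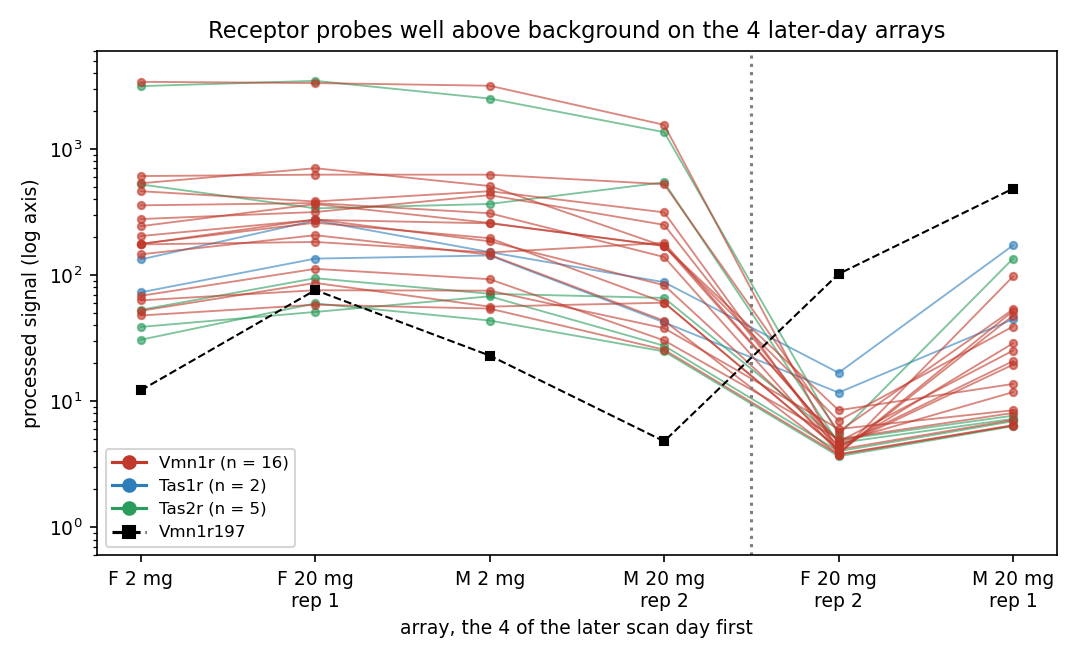
Processed signal (vertical, log axis) of the 23 receptor probes that were well above background on all 4 arrays of the later scan day, with 1 line per probe, and of Vmn1r197 (dashed, chosen by its dose difference). Arrays of the later scan day are left of the dotted line and both arrays of slide 2 right of it. On female 20 mg replicate 2 the 23 probes are at 16.8 or less, while Vmn1r197 has its highest values on the 2 arrays to the right.

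Vmn1r197 went the other way. It had processed signals of 12.2 on the female 2 mg array, 76.0 and 102 on female 20 mg replicates 1 and 2, 23.0 on the male 2 mg array, and 484 and 4.81 on male 20 mg replicates 1 and 2. It was the single receptor probe well above background on female 20 mg replicate 2, and its highest values came from the 2 arrays of slide 2. Male 20 mg replicate 2 was its lowest array, so the 2 pools of the male 20 mg FA group lay on either side of the 2 mg pool. The Vmn1r217 probe with which it shares the run of 17 bases was lowest on the 2 arrays of slide 2.

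Several receptors appeared in 1 pool alone. Vmn1r14 had 222 on the male 2 mg array and 4.46 to 7.60 on the other 5. Vmn1r67 had 226 on the male 2 mg array and 5.01 to 32.1 on the others. Vmn1r167 had 221 on the female 2 mg array and 4.68 to 8.11 on the others, and Vmn1r202 had 85.3 on male 20 mg replicate 1 and 4.74 to 7.83 on the others. Each of these probes has 1 spot per array, so a signal in 1 pool rests on 1 spot. In all, 31 receptor probes were well above background on 1 array alone, of which 17 were on female 20 mg replicate 1, 7 on the male 2 mg array, 4 on the female 2 mg array, 2 on male 20 mg replicate 2 and 1 on male 20 mg replicate 1.

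Of the 3 receptor probes printed in 10 spots per array, Vmn1r233 was well above background in none of its spots on any array. Vmn1r58 was so in 9 of 10 spots on the female 2 mg array (median 36.7, range 30.0 to 58.1), in 10 on female 20 mg replicate 1, in 8 on the male 2 mg array and in 1 on male 20 mg replicate 2. Vmn1r81 reached 6 of 10 spots on female 20 mg replicate 1 (median 29.8, range 14.2 to 63.3) and none elsewhere. Spots of 1 probe therefore fell on both sides of the limit on the same array at signals of about this size.

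The dose comparison asked whether receptor transcripts differed between the 20 mg and the 2 mg FA group. By the fold rule, which follows the study's methods, a probe had to vary more over the 6 arrays than the median probe and the mean of the 20 mg arrays had to differ from the 2 mg array of the same sex by ≥2.5 fold. It is no statistical test. The variation filter kept 15247 probes, of which 36 were receptor probes, and a probe that is bright in a few pools has more chance to pass it. The median difference of the receptor probes was 0.0 in males and 0.02 in females (log2, 20 mg minus 2 mg), and that of all probes 0.0 in both. In males 107 of the 215 probes (49.8%), and in females 60 (27.9%), had a difference of exactly zero because every value lay at the floor. With the deposited values the medians were 0.5 in males and 0.65 in females, against 0.1 and 0.07 over all probes, and with a common 75th percentile 0.0 and 1.69, against 0.0 and 1.04.

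In male pups 4 receptor probes (1.86%) were down-regulated, against 2.17% of all probes, and 3 (1.40%) were up-regulated, against 1.42% of all probes. In female pups 11 (5.12%) were down-regulated, against 10.3% of all probes, and 20 (9.30%) were up-regulated, against 8.65% of all probes. Except for the down-regulated probes of females, whose share was lower, these shares were near the background. A probe at the floor on the 2 mg array cannot be called lower, however. At the floor were 69.3% of receptor probes on the female 2 mg array and 67.0% on the male 2 mg array, against 25.7% of all probes on each. The shares of lower calls therefore cannot show whether receptors fell more or less often than other probes. In all 33 receptor probes were called, 7 in males and 31 in females, and 5 in both, each in the same direction in both sexes (Vmn1r65 and Vmn1r52 lower, Vmn1r197, Vmn1r202 and Vmn1r234 higher). Each of these 5 had its lowest or its highest normalized values, in the direction of its call, on the arrays of slide 2. The overlap between the sexes and its direction were not counted over all probes, so this overlap is a description alone.

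The split between the directions in females, 11 lower and 20 higher, turned with the floor set before normalization (12 lower and 5 higher) and with the values deposited by the authors (10 lower and 6 higher). Over all probes the counts were 5737 lower and 4815 higher at first, 7400 and 2541 with the floor set before normalization, and 5809 and 2363 with the deposited values, so that the higher calls became fewer there too. With a common 75th percentile, which moved the median of all probes in females to 1.04, 2 receptor probes were lower and 6 higher, against 354 and 1723 of all probes. In males the split was 6 lower and 3 higher with the deposited values (1340 and 747 over all probes), and 1 lower and 2 higher with a common 75th percentile (275 and 426).

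The replicate pools were then taken one at a time. In males 2 of the 4 lower calls (Vmn1r14 and Vmn1r67) and 1 of the 3 higher calls (Vmn1r234) were past 2.5-fold on both 20 mg arrays taken alone. In females this held for 2 of 11 lower calls (Vmn1r167 and Tas2r113) and for 1 of 20 higher calls (Vmn1r197). These shares were 50% and 33.3% in males and 18.2% and 5.0% in females, against 37.8% and 15.2%, and 8.19% and 2.97%, of the calls over all probes. Compared with each other by the same limit, the 2 pools at 20 mg differed in 32 of the filtered receptor probes in females and in 14 in males. The 31 and 7 calls for dose set a mean of 2 arrays against 1, which is not a like measure. Array against array in females, the 2 mg pool differed from replicates 1 and 2 in 3 and 33 filtered receptor probes. In males these counts were 15 and 8. As shares of the 215 they were 1.4%, 15.3%, 6.98% and 3.72%, against 2.36%, 25.2%, 8.21% and 7.78% of all probes. Over all probes the 2 pools at 20 mg differed in 13964 probes in females (25.1%, against 14.9% of receptor probes). In males they differed in 7394 (13.3%, against 6.51%).

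The calls that both pools bore out were these. Vmn1r14 was lower in males with a log2 difference of -3.15 (3.32 ± 0.00 SD, n = 2, at the floor, against 6.47), and since neither 20 mg array was well above background it was at least 2.98-fold lower. Vmn1r67 was lower in males with a difference of -2.51 (3.99 ± 0.22 SD, n = 2, against 6.50), at least 3.03-fold. These lower bounds hold for the quantile-normalized values alone. With normexp background correction the differences were -1.5 for Vmn1r14 and -1.04 for Vmn1r67. On mean brightness without background correction they were -1.3 and -1.0. Both calls rest on a bright spot on the male 2 mg array, and on the female 2 mg array of the same slide neither probe was well above background. Vmn1r167 was lower in females (3.79 ± 0.66 SD, n = 2, against 6.77), at least 1.61-fold, and here too the signal stood on the female 2 mg array alone.

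Tas2r113 was lower in females with a difference of -2.59 (5.35 ± 1.68 SD, n = 2, against 7.95), of which -1.40 was on replicate 1, on the same slide as the 2 mg array, and -3.79 on replicate 2. In males its difference was -3.85 on replicate 1 and 2.65 on replicate 2. Vmn1r234 was higher in males by 1.53 (5.67 ± 0.09 SD, n = 2, against 4.13), or 2.89-fold as observed. However, its processed signal was 45.2 and 38.2 on the 20 mg arrays against 37.9 on the 2 mg array. The median processed signal over all probes was 40.9 and 39.0 on these arrays against 119. The difference was 1.53 with a common 75th percentile as well, but 0.5 with normexp and 0.45 on mean brightness. Vmn1r197 was higher in females by 4.52 (7.84 ± 4.49 SD, n = 2, against 3.32 at the floor), with 1.35 on replicate 1 and 7.70 on replicate 2. On the quantile-normalized values this is at least 13.7-fold, but the difference was 2.57 with normexp and 2.46 on mean brightness.

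The remaining named calls rested on 1 pool. Vmn1r65 had a log2 difference of -2.85 in males, where replicate 1 differed by -6.94 and replicate 2 by 1.23, and of -4.10 in females, with -0.95 and -7.24. Vmn1r52 differed by -1.52 in males, with -2.97 and -0.06. Vmn1r197 differed by 2.23 in males, with 4.76 and -0.30, and Vmn1r202 by 1.52, with 3.04 and 0.00. Among the lower calls in females, Vmn1r217 differed by -2.76 (-1.06 and -4.46), Tas2r109 by -2.54 (-0.78 and -4.29) and Vmn1r192 by -2.43 (-0.75 and -4.11). In each of these, the larger part came from the array of slide 2.

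**Figure D3:**
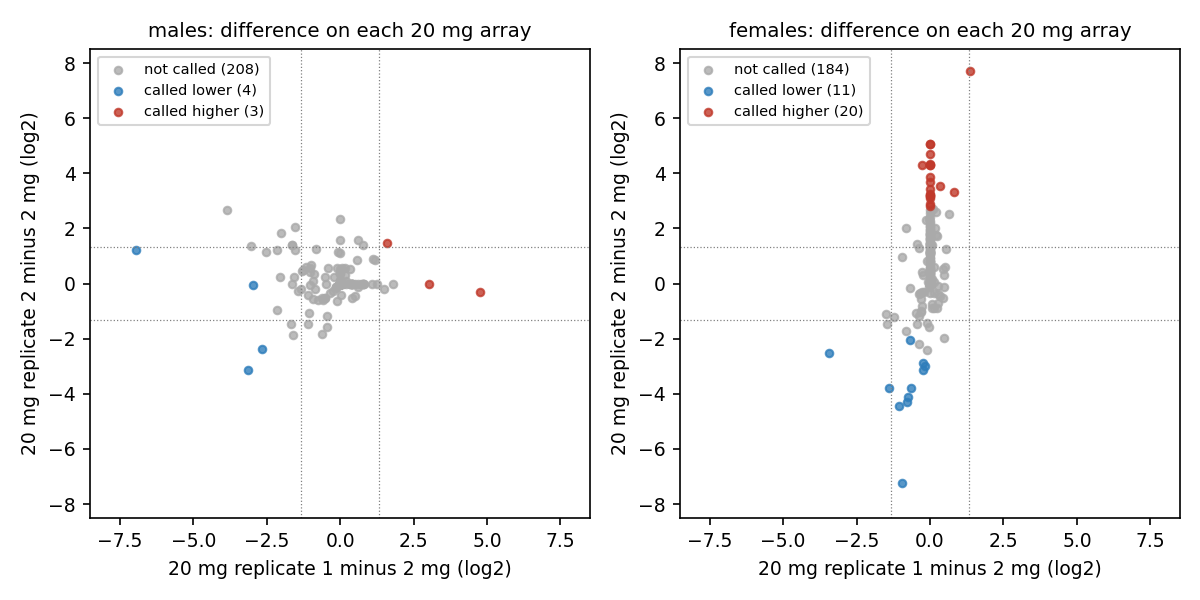
Difference of each 20 mg array from the 2 mg array of the same sex (normalized log2 values), with replicate 1 on the horizontal and replicate 2 on the vertical axis, for the 215 receptor probes in males and in females. Dotted lines mark 2.5-fold, and colours mark the calls of the fold rule. All 31 female calls lie past 2.5-fold on replicate 2, and 3 of them lie past it on replicate 1 as well.

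The 20 higher calls in females came largely from probes without a detectable signal. Of these 20 probes, 15 were well above background on none of the 6 arrays, and 19 were at the floor on the 2 mg array. On female 20 mg replicate 2 a single one, Vmn1r197, was well above background, and the other 19 had processed signals between 5.41 and 20.0 there. Quantile normalization, which gives each array the same distribution, placed these 19 signals at 6.14 to 8.93 on the log2 scale. By contrast, on female 20 mg replicate 1 a processed signal of 271 (Tas1r3) was placed at 6.27. The largest of these calls after Vmn1r197 were Vmn1r29 (14.3 placed at 8.39), Vmn1r34 (14.1 at 8.38), Vmn1r208 (11.6 at 8.02), Vmn1r4 (9.80 at 7.66) and Tas2r107 (9.60 at 7.61), none of them well above background on any array. The lowest normalized value of a probe well above background was 8.82 on female 20 mg replicate 2, against 3.36 to 5.01 on the other arrays. Of the 20 higher calls, 16 were well above background on no female array, against 2287 of the 4815 higher calls over all probes. Among the Olfr calls this held for 105 of 128, and among the Vmn2r calls for 15 of 18. On female 20 mg replicate 2, 1135 of the 4815 were well above background.

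**Figure D4:**
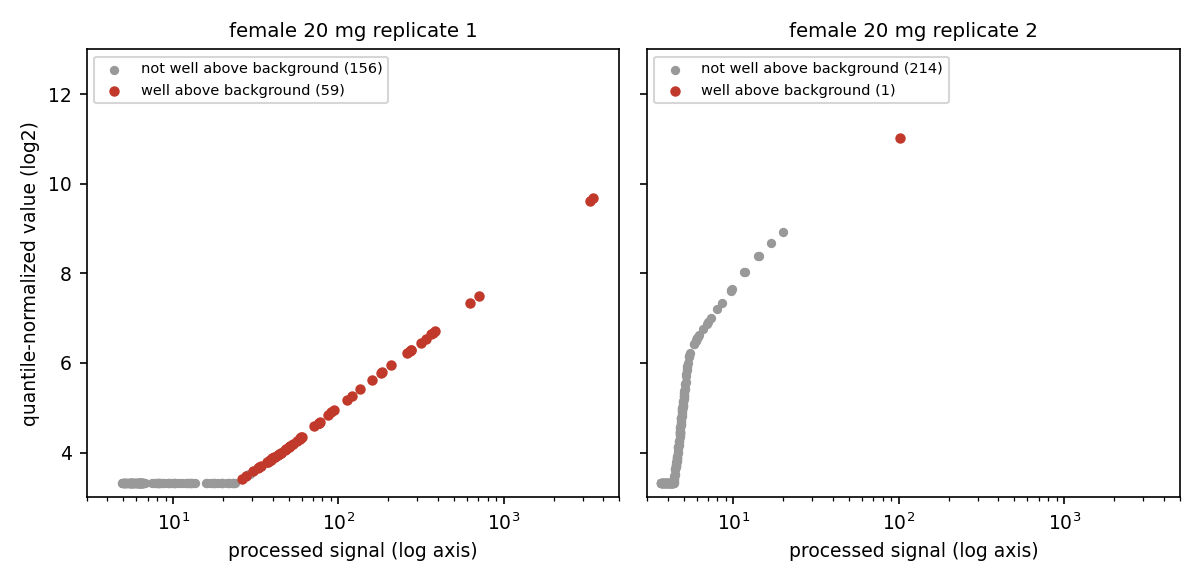
Processed signal (horizontal, log axis) against quantile-normalized log2 value (vertical) of the 215 receptor probes on female 20 mg replicates 1 and 2. Red points were well above background (59 and 1 probes). On replicate 2 a signal of 20.0 (Vmn1r234) is placed at 8.93, above the 7.50 of Vmn1r48, whose signal was 703, on replicate 1.

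Without female 20 mg replicate 2, and with the other 5 arrays normalized anew, 5 receptor probes were lower in females (2.33%, against 2.58% of all probes) and 1 was higher (0.465%, against 1.77%). The higher probe was Vmn1r197, at 1.60, and the lower ones were Vmn1r167, Tas2r113, Vmn1r67, Vmn1r189 and Vmn1r228. Of these 6 calls, 3 had also been made with the array. In males, whose arrays were scaled without it, 10 were lower (4.65%, against 3.97% of all probes) and 4 higher (1.86%, against 2.56%), which is near the background. In this setting too, a probe at the floor on the 2 mg array could not be called lower.

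On slide 1 the dose groups can be compared within the same slide and scan day, with 1 pool each. Of the 23 receptor probes bright on the later scan day, 19 were lower on female 20 mg replicate 1 than on the female 2 mg array, with a median difference of -0.38 (range -1.40 to 0.19), and 1 of them, Tas2r113, was past 2.5-fold. Over all 30058 probes bright on these arrays 15066 were lower, and 2.83% were past 2.5-fold lower and 1.47% higher. In males the same 23 probes had a median of 0.86 on replicate 2 (later scan day, slide 3), where 7 (30.4%) were past 2.5-fold higher, against a median of -0.1 and 11.1% of the 30058 probes. On replicate 1 (earlier scan day, slide 2) the median was -1.58 and 14 (60.9%) were past 2.5-fold lower, against 0.06 and 14.1% of the 30058 probes. Replicate 1 had no part in the choice of the 23, but the male 2 mg array did, so a lower value was favoured by the choice. The medians of the 2 sexes within the later scan day thus had opposite signs, and their difference was not tested. Odorant receptor probes chosen in the same way (107) had medians of -0.26 on female 20 mg replicate 1, where 84 were lower, and 0.73 and -1.63 on male replicates 2 and 1. Of them, 20.6% were past 2.5-fold higher on male replicate 2 and 60.7% lower on male replicate 1. For the 13 Vmn2r probes the medians were 0.15, -0.02 and -1.29 in the same order.

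The limma fit, with 4 groups and 2 residual degrees of freedom, tested the 37211 probes that were well above background on at least 2 arrays, of which 42 were receptor probes (19.5% of the 215). No receptor probe was called at an adjusted p under 0.05 in males, females, both sexes together or in the difference between the sexes, and neither was any other probe (0.0% in each contrast). With unadjusted p-values under 0.05 taken instead, the fit gave 0 receptor probes in every contrast, against 0.199% of all probes in males, 0.433% in females, 0.39% over both sexes and 0.137% for the difference between the sexes. The smallest unadjusted p was that of Vmn1r197 over both sexes, with 3.38 ± 1.76 (log2, SE, limma adjusted p = 1.0). Next was Vmn1r65 over both sexes, with -3.47 ± 1.88 (limma adjusted p = 1.0). In males the smallest belonged to Vmn1r124 (-1.56 ± 1.01, limma adjusted p = 1.0), followed by Vmn1r75 (-1.07 ± 0.88). The standard errors of the receptor probes ran from 0.88 to 2.66 in each sex, so a difference of 2.5-fold, or 1.32 on the log2 scale, was not detectable with this number of arrays.

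Genes through which these receptors signal, and other genes linked to the cells that use them, were taken from fixed lists. Of 6 marker genes of taste cells, none was well above background on 5 or more arrays. The taste G protein Gnat3 was so on none, with processed signals of 4.35 to 7.12, and the channel Trpm5 on 3 arrays (37.7, then 61.1 and 3.83 in females, and 39.0, then 24.7 and 23.0 in males). The summed signal of the 6 genes ran from 133 to 171 in the 2 mg FA group and from 28.6 to 284 in the 20 mg FA group. Of 6 marker genes of vomeronasal and olfactory neurons, 5 were well above background on at least 5 arrays. These included Trpc2, the channel of vomeronasal neurons, on all 6 (853, then 1028 and 48.4 in females, and 1136, then 115 and 604 in males), and the olfactory marker protein gene Omp on 5 (135, then 319 and 3.80, and 130, then 44.3 and 49.1). The remaining marker, Stoml3, was so on 1 array. Of the 14 listed genes of olfactory neurons, 8 were well above background on at least 5 arrays. Cnga4 was so on 3 arrays, Fezf1 on 2 and Rtp1 on none. The summed signal of the 6 marker genes was carried by Gnal (26375 on the female 2 mg array), which brain tissue also expresses. It ran from 28540 to 31096 at 2 mg and from 908 to 47836 at 20 mg. In pooled tissue, fewer cells of a type and less RNA per cell cannot be told apart, and the part of these cells in the receptor signals was not tested.

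By the fold rule, which called 2.17% of all probes lower and 1.42% higher in males and 10.3% lower and 8.65% higher in females, none of the 16 measured taste transduction genes was called in males, and in females 1 was lower and none higher. Of 12 genes on the vomeronasal transduction list, none was called in males, and 3 were lower and none higher in females. The 3 were Bcl11b, Ebf1 and Ebf2. Their processed signals were 6317, 5950 and 3803 on female 20 mg replicate 1 and 4.8, 4.79 and 3.8 on replicate 2. Trpc2, Gnai2, Gnao1, Gng8 and Gng2, of the same list, were not called. Of 14 genes of olfactory neurons, 1 (the adenylyl cyclase Adcy3) was higher in males, and 4 were lower and 1 was higher in females. Of the taste list, Itpr3, Gng13, Entpd2 and Car4 were well above background on all 6 arrays. Itpr3, Entpd2 and Car4 are widely used outside taste cells, and Gng13 is on the list of olfactory neurons too. Of the vomeronasal list, 6 genes were well above background on all 6 arrays. Of these 6, Gnai2, Gnao1, Gng2 and Meis2 are used by other neurons too. The other two were the channel gene Trpc2, given above, and Gng8, a G protein gamma subunit known from vomeronasal and olfactory neurons, with 816, then 1090 and 45.2 in females, and 557, then 389 and 85.6 in males.

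Base composition of the probes moved with detection. The median GC content was 36.7% for the 142 receptor probes well above background on no array, 40.0% for the 31 on 1 array, 41.7% for the 11 on 3 arrays and 45.0% for the 8 on 5 arrays, against 43.3% over all probes. This is a description across probes that share arrays and designs, and it was not tested. The run AGCCCC, searched on both strands, occurred in 6 receptor probes (2.79%) and in 2.05% of all probes, and on the strand given in 5 (2.33%) and in 0.981% of all probes. Of the 24 probes well above background on 4 or 5 arrays, 4 held it (Vmn1r194, Vmn1r195, Vmn1r204 and Vmn1r217), all on the strand given. These 4 are all Vmn1r genes of chromosome 13, and whether they share the run as related genes was not tested. Of the 142 dark probes 2 held it on either strand, 1 of them (Vmn1r132) on the strand given. As the run was noticed after values had been seen, this split is a description.

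**Figure D5:**
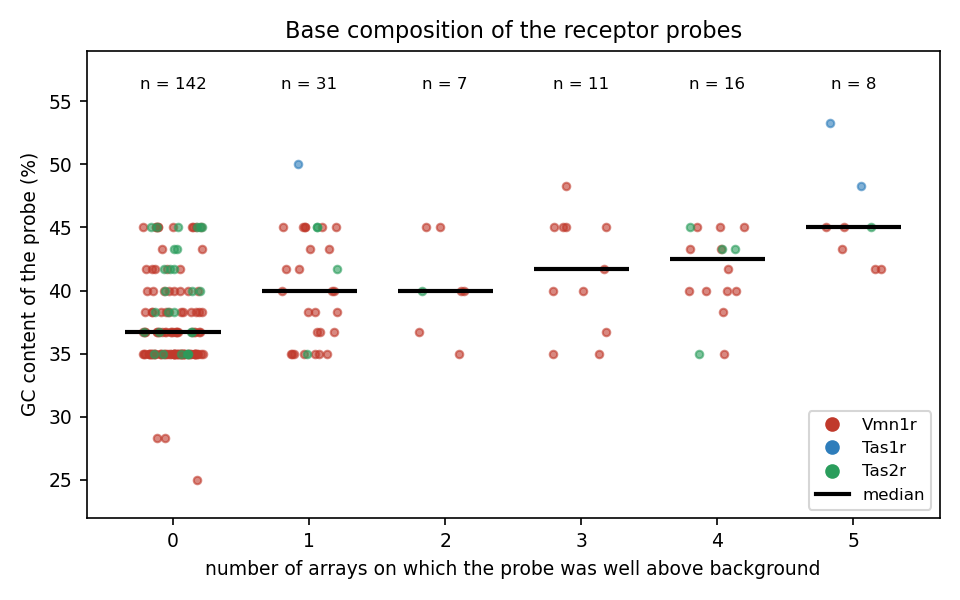
GC content (vertical, %) of each of the 215 receptor probes, grouped by the number of arrays on which it was well above background (horizontal). Points are probes, coloured by family and spread sideways for sight, and bars are medians, which run from 36.7% at no array to 45.0% at 5 arrays.

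Several receptors are close copies. For 17 probes another receptor gene has a probe with at least 50 of 60 bases identical at the same positions, up to 55 for Vmn1r139 and Vmn1r151, so their signals may be shared between copies. Among them were Vmn1r62 and Vmn1r63, with 53 identical bases, which were well above background on 3 and 4 arrays. Vmn1r124, with 54 bases in common with Vmn1r183, was well above background on 3 arrays and the Vmn1r183 probe on none. Of the 12 genes with more than 1 probe, 2 had both probes well above background on 3 or more arrays, namely Vmn1r168 (5 and 3 arrays) and Vmn1r217 (5 and 4 arrays).

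In these 2 genes the fold rule called 1 of the 2 probes lower in females. Vmn1r121 was the only gene with 2 called probes, both higher in females and both dark on all arrays.

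By position, 90 receptor probes lie on chromosome 6, 65 on chromosome 7, 36 on chromosome 13 and 14 on chromosome 17. Probes well above background on at least 3 arrays made up 9 of the 36 on chromosome 13 (25.0%), 9 of 65 on chromosome 7 (13.8%), 11 of 90 on chromosome 6 (12.2%) and 2 of 14 on chromosome 17 (14.3%). On chromosome 4 they were 2 of 4, Tas1r1 and Tas1r3. These shares rest on few probes, and the difference between chromosomes was not tested.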

How the data were processed

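The authors' deposited scanner files hold intensities from Agilent Feature Extraction 10.7.3.1 (version per the submitters' processing notes), which subtracts background, corrects the spatial trend, substitutes a value near background and flags spots well above background. The log2 values in the authors' deposited table were quantile normalized and given a floor. Here, outlier spots were left out, spots of a probe averaged, log2 processed signals quantile normalized across the 6 arrays, and lower values raised to a floor of 10. The variation filter used a chi-square p at or under 0.05 and at most 50% missing values. limma 3.58.1 in R 4.3.3 (trend, Benjamini-Hochberg adjustment) assumed that the lone 2 mg arrays vary like the 20 mg arrays. Where a probe was not well above background on any array of a dose, "at least" folds set the brighter mean against the higher of the probe's own value and the lowest value well above background, per array. These folds hold for the quantile-normalized values alone. Groups came from sample titles, and 0 columns of other series were used. Scripts were tested on simulated data.

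Genes were named by rule: the Tas1r genes, probes on at least 5 arrays, up to 6 calls per sex and direction with those past the limit on both 20 mg arrays first, the smallest 3 limma p-values in males, females and both, the brightest Tas2r, and list genes on all arrays. Other names, such as members of probe pairs, motif carriers and 10-spot probes, were chosen after values were seen. Members and lists were chosen with earlier results of these data known. Of the receptor probes 214 of 215 matched RefSeq (GRCm38.p6) by accession, used for names alone. Chromosome positions are those of the array design (mm9), and no mm9 annotation was used here. Alternatives covered normalization, floor, background, filters, scan day and single arrays.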

Additional observations from a re-analysis of the deposited data

How the results depend on the processing

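No paired analysis was possible because the 2 mg groups have 1 array each and so share fewer than 2 replicate numbers with the 20 mg groups. limma called 0 receptor probes under each alternative that tested any, scan day as a block included, with smallest adjusted p-values from 0.164 to 1.0 and 0 to 10 receptor probes at an unadjusted p under 0.05. Where probes had to be well above background on all 6 arrays, 0 receptor probes were left to test. Over all probes limma called at most 96, in females without female 20 mg replicate 1. The counts of the fold rule depended on the processing, over all probes too, whose counts are given in brackets in the same order. With a common 75th percentile in place of quantile normalization, 1 probe was lower in males, 2 were lower and 6 higher in females (275, 354 and 1723), and the median in females was 1.69, against 1.04 over all probes. With the floor before normalization, 5 were higher in females (2541) and the medians were 0.01 in males and 0.46 in females (0.01 and 0.09). With normexp, 1 was lower and 0 higher in males, 3 lower and 4 higher in females (611, 198, 2211 and 1349), and the medians were -0.01 and 0.08 (0.03 and 0.03). On mean brightness, 1 was lower and 0 higher in males, 3 lower and 2 higher in females (590, 186, 1970 and 1134), and the medians were -0.01 and 0.07 (0.03 and 0.02). With the deposited values 6 were higher in females (2363), with medians of 0.5 and 0.65 (0.1 and 0.07), and without a floor the medians were 0.06 and 0.33 (0.06 and 0.09). On the later scan day alone, 9 were lower and 14 higher in males, and 7 lower and 1 higher in females (4208, 5097, 1699 and 1198). Vmn1r65 then differed by 1.18 in males and Vmn1r197 by -0.82, both turned in sign. Without the variation filter 7 were lower in males (1795). Where a signal well above background was required on every array of a dose, 1 was higher in males and 2 in females (489 and 1623). The cause of these shifts was not tested.

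Leaving out each 20 mg array in turn gave 3 to 10 lower and 3 to 6 higher in males, and 5 to 12 lower and 1 to 22 higher in females (1047 to 2827, 685 to 2370, 1435 to 7628 and 985 to 5891). The medians then were 0.0 in males and 0.0 to 0.07 in females. Vmn1r65 ranged from -7.1 to 1.25 and Vmn1r197 from -0.42 to 4.74 in males, and both turned in sign without male 20 mg replicate 1. With the positive-and-significant flag, 41.9% of receptor probes passed on the female 2 mg array, 53.0% and 15.3% on female 20 mg replicates 1 and 2, 46.0% on the male 2 mg array, and 14.4% and 32.1% on male 20 mg replicates 1 and 2. Over the 95th percentile of the negative control spots were 39.5%, 51.2% and 11.6% in females and 42.3%, 16.7% and 31.2% in males, in the same order. Signal over background limits what could be seen of these dim probes. The median background-subtracted signal was lowest on female 20 mg replicate 2 over all probes (3.57), and on male 20 mg replicate 1 over the receptor probes (-3.67).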
